A study of Mus musculus with 39 samples.

Results

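The genes described here make, carry and destroy retinoic acid or handle its precursors retinol and retinal. They are Cyp26b1 and Cyp26a1 (breakdown), Dhrs3 (reduction of retinal), Rdh10 (oxidation of retinol), Aldh1a1, Aldh1a2 and Aldh1a3 (oxidation of retinal), Crabp2 (binding in the cytoplasm) and Stra6 (uptake of retinol). The 9 genes were listed by name for their role and looked up by symbol in the deposited count table. The table holds 39676 genes, and 8 of the 9 were found in it. Cyp26a1 was not analysed here. All 8 genes passed the filter on low counts in every comparison, and none had fewer than 10 counts in any tumour. Levels are given as CPM, a gene's counts relative to the library total, normalised over all tumours.

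The 39 tumours were subcutaneous growths of AB1-HA in BALB/c mice, a murine mesothelioma line made to express haemagglutinin of influenza virus. PBS was given to 10 mice and tretinoin to 9, as 5 mg/kg daily for 5 doses from day 4. Immune checkpoint therapy (ICT), 100 µg of antibody to CTLA-4 and 100 µg of antibody to PD-L1 commencing on day 7, was given to 10 mice, and tretinoin with ICT to a further 10. Tumours were cut out on day 9, and for tretinoin+ICT the tumour left on the other flank was followed, which divided that group into 6 responders and 4 non-responders. All groups therefore share the strain and the tumour line, and each tumour came from a mouse of its own. The study used mice of both sexes, which the labels do not tell apart. By its methods, tretinoin was dissolved in DMSO and its control was PBS with DMSO, and ICT alone had PBS as its control. For tretinoin alone against control, a figure of the study gives a higher daily dose than the labels. Its figures of the tretinoin+ICT tumours give the labels' daily dose. The figure of all 4 treatments gives that daily dose for tretinoin alone as well, but as 4 doses where the labels give 5. The labels' doses are used here, and any difference in exposure between the tretinoin and the tretinoin+ICT mice cannot be told apart from the presence of ICT.

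Library totals lay between 14033000 and 37951200 counts (median 18548200), and every tumour but 1 (responder 6, the highest) lay at or below 23315100. The tumours carry names whose first digit gives 8 name series, with 2 series per treatment and no series holding 2 treatments. What a name series is was not stated, so series and treatment cannot be told apart, and each treatment comparison was also made within the 4 pairs of series. Of 10 mesothelial and mesothelioma markers, 6 were in the table. Pdpn had a mean of 73.3 CPM and Wt1 of 1.67 CPM. Upk3b was at 0 in 36 of 39 tumours and the means of Lrrn4, Krt19 and Calb2 were 0.0588, 0.307 and 0.22 CPM. Upk3b, Lrrn4, Krt19 and Calb2 were thus near the limit of detection, and the listed markers outside the table were not examined. Non-responder 2 stood apart in the summed level of 5 skeletal muscle markers, at 3558 CPM against 311 to 1837 CPM in the other tumours. PBS 4, tretinoin 3, ICT 3 and ICT 7 stood apart from their own groups in the summed level of 5 T cell markers. These 5 tumours and responder 6 were left out together as an alternative, which is given beside the results that it changed. The samples are bulk tumour, in which fewer cells of a type and less RNA per cell cannot be told apart.

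Retinoic acid is the active form of vitamin A. Retinol enters the cell through Stra6 among other routes, Rdh10 oxidises it to retinal, Dhrs3 turns retinal back into retinol, and the Aldh1a enzymes oxidise retinal irreversibly to retinoic acid, which Crabp2 carries to the nuclear receptors. Cyp26 enzymes hydroxylate retinoic acid for disposal. Tretinoin is all-trans retinoic acid itself, the product of the Aldh1a step, and Cyp26 genes, Dhrs3, Stra6, Crabp2 and Lrat are classical targets of the receptors that it activates.

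RefSeq promoter windows (GRCm38) were at hand for 5 of the 8 genes, 11 windows in all, and none for Rdh10, Aldh1a3 and Crabp2. The stretches before the start sites of the 3 genes with the largest rise after tretinoin, and of Aldh1a2, whose pattern differed from theirs, are shown so that they can be read beside the expression values. Capitals mark every match, on either strand, to the GC box GGGCGG and to TATAAA. Bases that GENCODE M21 places in an exon are left out, which shortens the Cyp26b1 stretch to 152 bases. Dhrs3 had 3 windows and Stra6 had 4. For each, a single window is shown, chosen for the longest stretch outside exons among those whose start lies in an annotated transcript.
Cyp26b1: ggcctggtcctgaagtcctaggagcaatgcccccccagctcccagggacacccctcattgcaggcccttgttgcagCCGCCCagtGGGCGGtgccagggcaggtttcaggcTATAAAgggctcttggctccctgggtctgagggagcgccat
Dhrs3: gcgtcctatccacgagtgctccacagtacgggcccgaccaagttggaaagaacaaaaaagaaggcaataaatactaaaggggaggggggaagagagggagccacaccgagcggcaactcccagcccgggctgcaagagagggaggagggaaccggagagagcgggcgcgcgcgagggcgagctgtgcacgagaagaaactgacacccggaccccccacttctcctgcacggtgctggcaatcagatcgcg
Stra6: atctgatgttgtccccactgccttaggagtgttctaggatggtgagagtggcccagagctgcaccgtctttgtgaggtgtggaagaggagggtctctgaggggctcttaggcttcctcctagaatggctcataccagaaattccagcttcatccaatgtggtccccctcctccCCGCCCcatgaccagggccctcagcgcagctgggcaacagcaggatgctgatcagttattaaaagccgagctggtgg
Aldh1a2: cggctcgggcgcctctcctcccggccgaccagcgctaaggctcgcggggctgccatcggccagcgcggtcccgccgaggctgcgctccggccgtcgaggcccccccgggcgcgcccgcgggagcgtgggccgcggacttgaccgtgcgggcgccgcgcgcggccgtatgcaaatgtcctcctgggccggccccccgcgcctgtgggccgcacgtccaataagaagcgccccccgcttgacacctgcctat
They lie at chr6:84593909-84594060 (minus strand), chr4:144892577-144892826, chr9:58128838-58129087 and chr9:71215539-71215788 (plus strand), and their GC contents are 65.1%, 61.6%, 56.4% and 77.6%. The Stra6 stretch lies inside the bounds of the GENCODE gene but outside its exons. The same windows were searched, 250 bases before each start site, for the retinoic acid receptor half-sites AGGTCA and AGTTCA and for direct repeats of either with 1, 2 or 5 bases between them, on both strands. None of the 11 windows held a half-site or a repeat. Over all 32851 windows of the same length, 14% held AGGTCA, 11.8% held AGTTCA, and 0.067%, 0.0365% and 0.0335% held a repeat spaced by 1, 2 and 5 bases. The Cyp26b1 window held GGGCGG 3 times and TATAAA once, 3 of the 4 Stra6 windows held GGGCGG, and the Dhrs3 and Aldh1a2 windows held neither. GGGCGG was in 32.7% and TATAAA in 12.4% of all windows. A match is a description of letters, and its absence says only that these letters are not in this window.

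The first question was what systemic tretinoin did to the genes of its own metabolism. A gene was said to rise or fall where edgeR's quasi-likelihood test, fitted over all genes tested, gave a Benjamini-Hochberg adjusted p below 0.05. After tretinoin 5 of the 8 genes rose (Cyp26b1, Dhrs3, Stra6, Crabp2 and Aldh1a2) and 1 fell (Rdh10), where 20.4% of all 14340 genes tested passed. When the log2 fold change also had to reach 1 in either direction (the fold minimum), 3 passed (Cyp26b1, Dhrs3 and Stra6), against 1.62% of all genes. The median log2 fold change of the 8 genes was 0.66, against 0.01 over all genes tested. By p, Dhrs3 was ranked 1 and Cyp26b1 2 of all 14340 genes.

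After ICT alone, compared with PBS, 3 of the 8 genes rose (Cyp26b1, Dhrs3 and Aldh1a2) and Crabp2 fell, where 21.2% of 14155 genes passed. With the fold minimum only Cyp26b1 remained, against 2.35% of all genes. The median of the 8 was -0.06, against -0.02 over all genes. When tretinoin+ICT was compared with ICT, 3 of 8 rose (Cyp26b1, Dhrs3 and Crabp2) and none fell, where 1.99% of 14202 genes passed, and 2 of these, Cyp26b1 and Dhrs3, met the fold minimum, against 0.394%. The median was 0.52, against -0.005 over all genes. Dhrs3 was ranked 1 and Cyp26b1 4 by p in that comparison.

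When tretinoin+ICT was compared with tretinoin alone, 4 of the 8 genes were lower (Cyp26b1, Dhrs3, Stra6 and Crabp2) and Aldh1a2 was higher, where 21.4% of 14393 genes passed. Cyp26b1, Stra6 and Aldh1a2 met the fold minimum, against 2.08% of all genes, and the median of the 8 was -0.27, against -0.004. Compared with PBS, tretinoin+ICT gave 4 that rose (Cyp26b1, Dhrs3, Aldh1a2 and Crabp2) and 1 that fell (Rdh10), a count to be read against 50.3% of 14265 genes. With the fold minimum 3 of 8 passed (Cyp26b1, Dhrs3 and Aldh1a2), against 5.92%. The median was 0.28, against -0.01 over all genes. The test of whether the difference made by tretinoin was itself different with and without ICT (interaction, all 39 tumours) passed for Cyp26b1 and Dhrs3, both with the fold minimum, where 0.307% of 14977 genes passed and 0.0601% passed with the minimum. These comparisons share groups of tumours, so their values are given side by side and not as separate evidence. The plot of fold changes shows all 8 genes in these 6 comparisons.

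**Figure D1:**
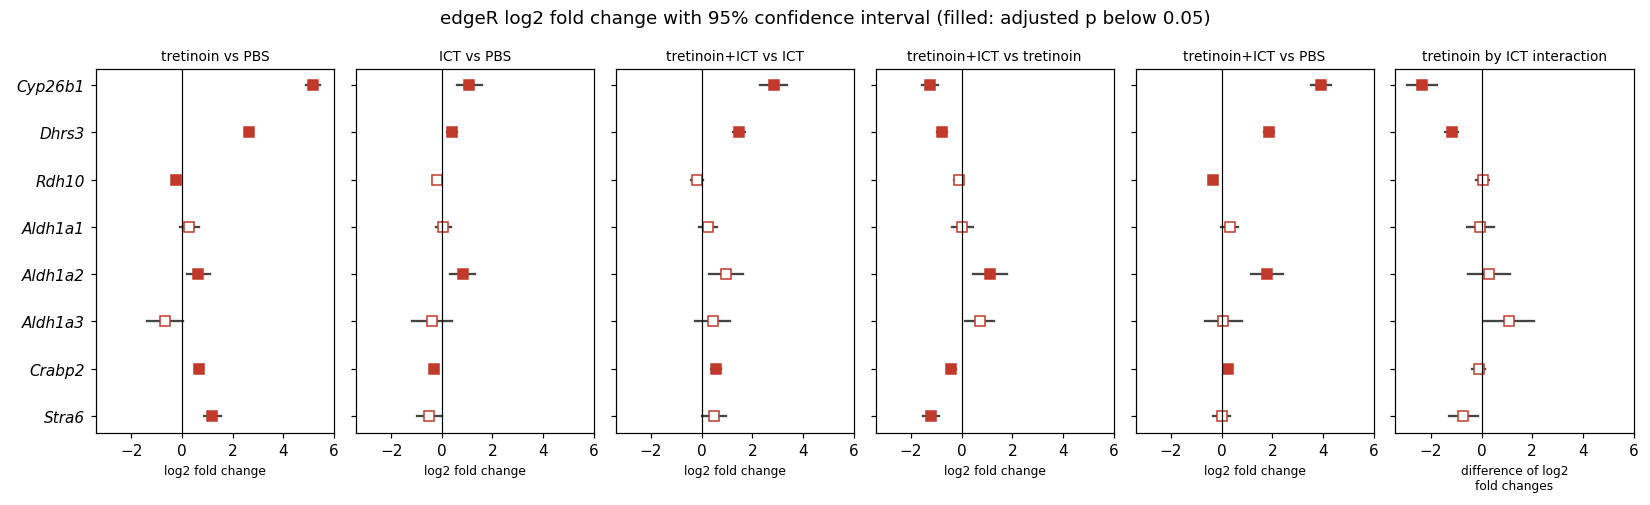
Log2 fold changes of the 8 genes (rows) in 5 comparisons of treatments, and the interaction of tretinoin and ICT in the last panel, as squares with 95% confidence intervals (lines), filled where the adjusted p was below 0.05. Cyp26b1 and Dhrs3 are filled in every panel, at 5.19 and 2.66 after tretinoin and at -2.36 and -1.18 for the interaction, whereas Aldh1a1 and Aldh1a3 are open in every panel.

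Cyp26b1 (ENSMUSG00000063415.12, chromosome 6, 84571414 to 84593908, minus strand) encodes a cytochrome P450 that clears retinoic acid. Its lowest, median and highest levels were 5.49, 8.34 and 11.7 CPM in the PBS tumours and 242, 315 and 386 CPM in the tretinoin tumours. The 2 groups did not overlap, and the lowest tretinoin tumour lay far above the highest PBS tumour. The fold change was 36.5 (log2 5.19, SE 0.134, adjusted p=1.99e-16), with 5.03 to 5.30 on the log2 scale within the 4 pairs of name series, all of which passed. The ICT tumours had 6.47, 15.9 and 32.4 CPM and the tretinoin+ICT tumours 53.2, 119.8 and 170.1 CPM. Of the ICT tumours, 8 of 10 lay above every PBS tumour, and every tretinoin+ICT tumour lay above every ICT tumour and below every tretinoin tumour.

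ICT alone thus gave a 2.12-fold rise of Cyp26b1 over PBS (log2 1.08, SE 0.24, adjusted p=0.00527), which had the same direction in all 4 pairs of series and passed in 1. The ICT group was also the most uneven, with a coefficient of variation of 47.6% against 23.4% in PBS and 15.3% in tretinoin tumours. Adding tretinoin to ICT gave a 7.13-fold difference (log2 2.83, SE 0.26, adjusted p=2.07e-06), which passed in 3 of the 4 pairs of series. Adding ICT to tretinoin gave a log2 difference of -1.27 (SE 0.154, adjusted p=4.58e-05), which passed in all 4 pairs. The log2 difference made by tretinoin was therefore 5.19 without and 2.83 with ICT, and the interaction was -2.36 (SE 0.292, adjusted p=5.87e-06). Against PBS, tretinoin+ICT remained 15.2-fold higher (log2 3.92, SE 0.185, adjusted p=2.1e-11).

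Dhrs3 (ENSMUSG00000066026.14, chromosome 4, 144892827 to 144928209, plus strand) encodes a reductase that returns retinal to retinol and so draws substrate away from retinoic acid synthesis. It had 36.9, 44.9 and 52.0 CPM in the PBS tumours and 253, 272 and 322 CPM in the tretinoin tumours. These groups were separate, with a 6.32-fold difference (log2 2.66, SE 0.0692, adjusted p=8.59e-17), and 2.51 to 2.77 on the log2 scale in the 4 pairs of series, all of which passed. ICT tumours had 43.0, 59.6 and 74.9 CPM and tretinoin+ICT tumours 112, 166 and 205 CPM. Here too the tretinoin+ICT tumours formed a step of their own, above every ICT and below every tretinoin tumour, and 7 of 10 ICT tumours lay above every PBS tumour.

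The rise of Dhrs3 after ICT was 1.31-fold (log2 0.40, SE 0.0951, adjusted p=0.00788) and passed in 2 of the 4 pairs of series. Tretinoin+ICT was 2.78-fold higher than ICT (log2 1.48, SE 0.108, adjusted p=7.91e-08), and on the log2 scale it was 0.78 lower than tretinoin (log2 -0.78, SE 0.0877, adjusted p=2.29e-05). The interaction was -1.18 (SE 0.131, adjusted p=3.37e-07). Cyp26b1 and Dhrs3 thus had the same order of groups, PBS, ICT, tretinoin+ICT and tretinoin, with each step passing its test.

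**Figure D2:**
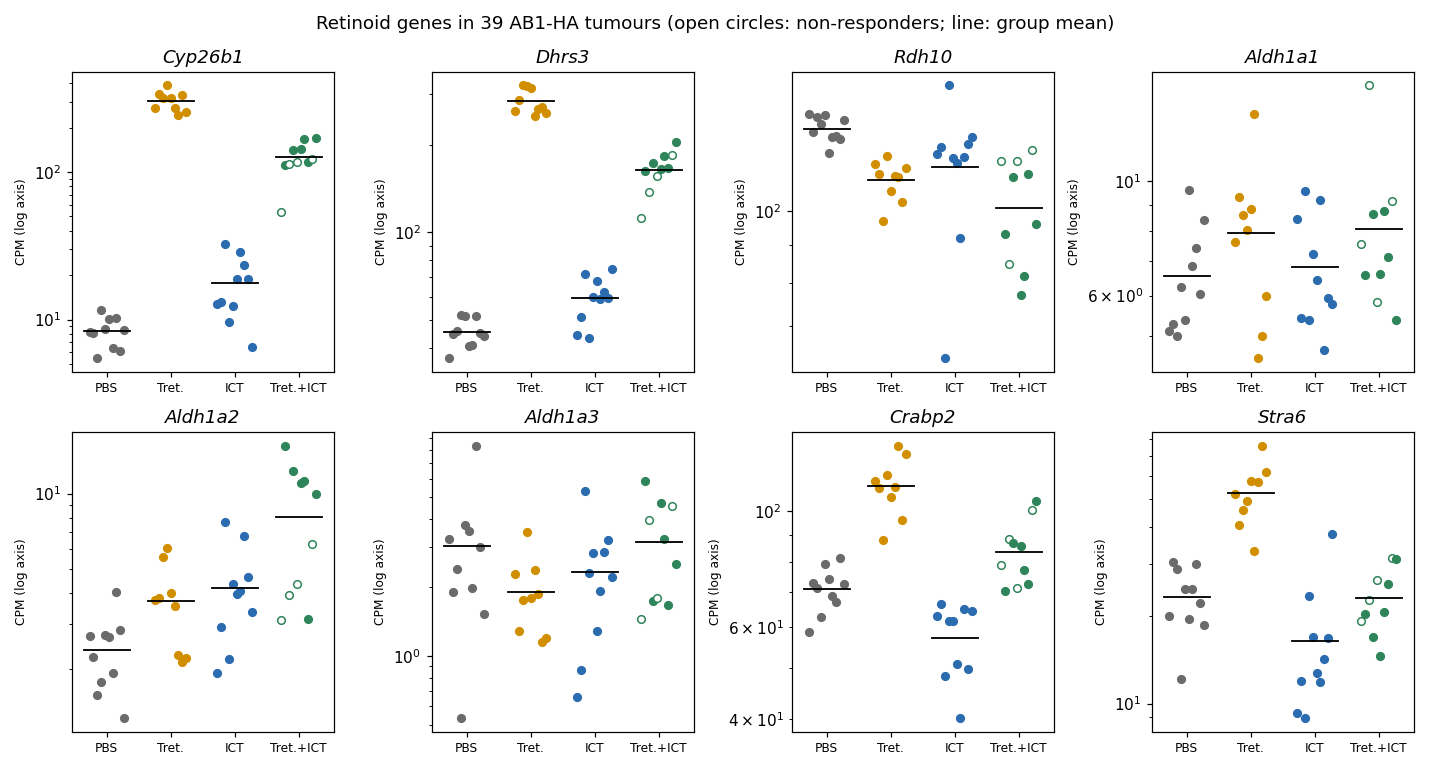
Level of each of the 8 genes in each of the 39 tumours, in CPM on a log axis that differs between panels, with a line at the mean of each treatment group and open circles for the 4 non-responders. For Cyp26b1 the tretinoin tumours (242 to 386 CPM) sit above the tretinoin+ICT tumours (53.2 to 170.1 CPM), and these above ICT (6.47 to 32.4 CPM) and PBS (5.49 to 11.7 CPM).

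Rdh10 (ENSMUSG00000025921.7, chromosome 1, 16105774 to 16133734, plus strand) encodes the dehydrogenase that oxidises retinol to retinal, the first step towards retinoic acid. PBS tumours had 119.7, 129 and 135 CPM and tretinoin tumours 97.0, 112 and 119 CPM. The groups did not overlap, although the difference was small: every tretinoin tumour lay below every PBS tumour, at a fold change of 0.856 (log2 -0.22, SE 0.0362, adjusted p=0.000185). It had the same direction in all 4 pairs of series and passed in 3. With all 39 tumours in one fit the adjusted p was 0.0889, on a spread estimated over all groups. The spread was wider with ICT, from 63.5 to 148 CPM for ICT (coefficient of variation 19.6%, against 3.98% in PBS) and from 77.0 to 121 CPM for tretinoin+ICT. ICT did not pass against PBS (log2 -0.17, SE 0.0923, adjusted p=0.181), whereas tretinoin+ICT was lower than PBS (log2 -0.35, SE 0.0707, adjusted p=0.000413), with 9 of 10 tumours below every PBS tumour.

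Of the 3 retinal dehydrogenases, which make retinoic acid, only Aldh1a2 passed in any of the main comparisons. Aldh1a2 (ENSMUSG00000013584.5, chromosome 9, 71215789 to 71296243, plus strand), the main enzyme of this step in the embryo, had 1.27, 2.45 and 4.04 CPM in PBS tumours and 2.12, 3.74 and 6.09 CPM in tretinoin tumours. These overlapped, and the 1.57-fold rise (log2 0.65, SE 0.222, adjusted p=0.0424) came near the threshold. It depended on the name series, at 0.86 and 1.07 for series 3 against each PBS series and -0.00017 and 0.22 for series 7, of which 1 of 4 passed, and without the 6 tumours that stood apart the adjusted p was 0.113. The mean of series 3 was 4.65 ± 1.10 CPM (SD, n=5) and that of series 7 was 2.54 ± 0.678 CPM (SD, n=4).

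With ICT, Aldh1a2 had 1.91, 4.01 and 7.72 CPM, 5 of 10 tumours lying above every PBS tumour (log2 0.82, SE 0.24, adjusted p=0.0202). It passed in 1 of 4 pairs of series, and without the 6 tumours the adjusted p was 0.0828. Tretinoin+ICT tumours had 3.14, 8.12 and 15.5 CPM, with 7 of 10 above every PBS and 6 of 10 above every tretinoin tumour. The rise was 3.44-fold over PBS (log2 1.78, SE 0.303, adjusted p=8.02e-05), which passed in 4 of 4 pairs of series, and 2.19-fold over tretinoin (log2 1.13, SE 0.318, adjusted p=0.019), which passed in 1 of 4 pairs (log2 0.77 to 1.71). Against ICT the log2 difference was 0.95 (SE 0.317, adjusted p=0.133) and did not pass, but it passed with all tumours in one fit (adjusted p=0.038) and without the 6 tumours (log2 1.16, adjusted p=0.0456). The mean of Aldh1a2 was highest with both treatments together, and the interaction did not pass (log2 0.30, 95% interval -0.52 to 1.12, adjusted p=0.858).

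Aldh1a1 (ENSMUSG00000053279.6, chromosome 19, 20492715 to 20643465, plus strand, matched without its version) passed in no comparison. Its means were 6.54 ± 1.54 CPM in PBS (SD, n=10), 7.95 ± 2.69 in tretinoin (SD, n=9), 6.81 ± 1.72 in ICT (SD, n=10) and 8.10 ± 2.85 in tretinoin+ICT tumours (SD, n=10), and all groups overlapped. For tretinoin against PBS the log2 difference was 0.29 (95% interval -0.08 to 0.66, adjusted p=0.248), and pairs of series gave -0.06 to 0.65, of which 1 of 4 passed. Aldh1a1 was highest, at 15.4 CPM, in non-responder 2, the tumour with the most skeletal muscle RNA. Aldh1a3 (ENSMUSG00000015134.15, chromosome 7, 66390890 to 66427517, minus strand) was the lowest of the 8 per length in every treatment group, and scattered most in PBS tumours (coefficient of variation 70.1%). It had a median of 2.71 CPM in PBS (0.533 to 8.36), 1.80 in tretinoin (1.15 to 3.50), 2.26 in ICT (0.659 to 5.27) and 2.90 CPM in tretinoin+ICT tumours (1.46 to 5.86). All groups overlapped. The log2 difference after tretinoin was -0.65 (SE 0.342, adjusted p=0.177), and tretinoin+ICT was 0.72 above tretinoin (SE 0.276, adjusted p=0.0659) with edgeR, which DESeq2 put at an adjusted p of 0.043.

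Crabp2 (ENSMUSG00000004885.5, chromosome 3, 87948666 to 87953376, plus strand) encodes the binding protein that hands retinoic acid to its receptor. PBS tumours had 58.7, 72.0 and 81.5 CPM and tretinoin tumours 87.9, 111 and 134 CPM, without overlap. The rise was 1.59-fold (log2 0.66, SE 0.0698, adjusted p=1.14e-06) and passed in 4 of 4 pairs of series. ICT tumours had 40.1, 61.6 and 66.5 CPM, 4 of 10 lying below every PBS tumour (log2 -0.31, SE 0.0816, adjusted p=0.0125), and tretinoin+ICT tumours had 70.3, 82.3 and 105 CPM. Every tretinoin+ICT tumour lay above every ICT tumour (log2 0.55, SE 0.0937, adjusted p=0.00164), and 7 of 10 lay below every tretinoin tumour (log2 -0.41, SE 0.083, adjusted p=0.00305). The fall after ICT passed in 1 of 4 pairs of series, the rise over ICT in none of 4 and the difference from tretinoin in 1 of 4, each with the same direction throughout. The difference made by tretinoin, 0.66 without and 0.55 with ICT, gave an interaction of -0.12 (95% interval -0.36 to 0.13, adjusted p=0.8).

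Stra6 (ENSMUSG00000032327.14, chromosome 9, 58063788 to 58153996, plus strand) encodes the membrane receptor that takes up retinol from its carrier in plasma. PBS tumours had 12.1, 23.4 and 30.5 CPM and tretinoin tumours 33.2, 52.1 and 76.0 CPM, again without overlap. The rise was 2.29-fold (log2 1.19, SE 0.161, adjusted p=3.43e-05) and passed in 3 of 4 pairs of series. With ICT in both arms no rise passed: ICT tumours had 8.92, 13.4 and 37.99 CPM and tretinoin+ICT tumours 14.6, 21.5 and 31.5 CPM, which overlapped each other and PBS. Every tretinoin+ICT tumour lay below every tretinoin tumour (log2 -1.20, SE 0.152, adjusted p=7.48e-05) and differed from PBS by -0.003 on the log2 scale (95% interval -0.33 to 0.32, adjusted p=0.99). Its difference from ICT was 0.48 (SE 0.224, adjusted p=0.262), and that between ICT and PBS -0.49 (SE 0.232, adjusted p=0.131). The interaction of -0.71 (95% interval -1.29 to -0.13, adjusted p=0.388) did not pass, so that the difference made by tretinoin was not shown to depend on ICT for this gene.

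Markers of other cell types were read beside these results, and counts of markers that passed are to be read against the share of all genes. That share was 20.4% for tretinoin and 21.2% for ICT against PBS. It was 21.4% for tretinoin+ICT against tretinoin and 50.3% for tretinoin+ICT against PBS. The summed level of 3 fibroblast markers (Col1a1, Col3a1 and Pdgfra, of 5 listed) ranged from 11793 to 19253 CPM in PBS, 9430 to 18242 CPM in tretinoin, 8614 to 19850 CPM in ICT and 8830 to 18023 CPM in tretinoin+ICT tumours. None of the 3 passed for tretinoin or ICT against PBS, and 1 fell with tretinoin+ICT against tretinoin and against PBS. That of 5 macrophage markers (of 6 listed) ranged from 1184 to 1720 CPM in PBS, 1231 to 2234 CPM in tretinoin, 1376 to 2544 CPM in ICT and 1624 to 2359 CPM in tretinoin+ICT tumours, and 5 of 5 rose after ICT and with tretinoin+ICT against PBS. After tretinoin 2 of 5 macrophage and 2 of 5 endothelial markers rose. With tretinoin+ICT against tretinoin, where Cyp26b1, Dhrs3, Stra6 and Crabp2 were lower, 4 of 5 macrophage and 4 of 4 neutrophil markers rose. In that comparison 1 of 5 endothelial markers fell, a count near the share of all genes. Of 4 neutrophil markers (of 5 listed), 4 rose after ICT, and their sum was 45.9 to 110.1 CPM in PBS and 67.5 to 264 CPM in ICT tumours. None of these marker genes was at 0 in any tumour. Of 2 mesothelial markers tested, 2 rose after ICT, 2 with tretinoin+ICT against tretinoin and 2 against PBS, and 1 rose after tretinoin. The summed level of the 6 in the table was 77.2 to 99.4 CPM in tretinoin+ICT and 58.7 to 76.9 CPM in PBS tumours, without overlap. Nearly all of that sum was Pdpn (mean 73.3 CPM over all tumours, against 1.67 CPM for Wt1), so it describes mainly that gene. Of 4 eosinophil markers listed, 3 were tested with tretinoin+ICT against PBS, and all 3 rose. Only 2 were tested for tretinoin or for ICT against PBS. The set tested thus depended on the filter on low counts, and the count supports nothing. The part of these cell types in the values of Cyp26b1, Dhrs3, Aldh1a2, Crabp2 and Stra6 was not tested.

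Levels of different genes were compared per length, as CPM divided by the kilobases of their annotated exons. In PBS tumours Crabp2 was the highest at 53.6 ± 5.28 CPM per kb (SD, n=10), followed by Rdh10 at 31.1 ± 1.24, Dhrs3 at 15.5 ± 1.76 and Stra6 at 3.96 ± 1.001 CPM per kb (SD, n=10). Cyp26b1 at 1.56 ± 0.365, Aldh1a1 at 1.32 ± 0.312, Aldh1a2 at 1.05 ± 0.354 and Aldh1a3 at 0.656 ± 0.46 CPM per kb (SD, n=10) came last, and neighbours among these 4 differed by less than the larger of their SDs. In tretinoin tumours the order was Dhrs3 at 97.0 ± 9.73, Crabp2 at 84.6 ± 10.8, Cyp26b1 at 56.7 ± 8.68, Rdh10 at 26.5 ± 1.64 and Stra6 at 9.02 ± 2.14 CPM per kb (SD, n=9), with Aldh1a2 at 1.64 ± 0.628, Aldh1a1 at 1.61 ± 0.546 and Aldh1a3 at 0.415 ± 0.161 CPM per kb (SD, n=9) last. Cyp26b1 thus moved from place 5 to 3, and Dhrs3 and Crabp2 differed by little more than 1 SD. In tretinoin+ICT tumours Crabp2 (63.3 ± 9.01 CPM per kb, SD, n=10) and Dhrs3 (56.3 ± 8.85) differed by less than their SD, as did Rdh10 (24.3 ± 3.93) and Cyp26b1 (23.5 ± 6.26). On this scale the 3 Aldh1a genes stayed below 4 CPM per kb in the mean of every treatment group.

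The second question was whether these genes differed at resection between tretinoin+ICT tumours of mice that later responded and of mice that did not. None of the 8 passed with edgeR, and 0 (0%) of 14604 genes did, with or without the fold minimum. Unadjusted, 3302 genes had p below 0.05, and DESeq2 called 1401 genes, so that the count of calls differs between the tools. The median log2 difference of the 8 was 0.09, against 0.01 over all genes tested.

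Aldh1a2 had the largest difference of the 8. Its 4 non-responders had 3.14, 3.95, 4.36 and 6.29 CPM, and its 6 responders ranged from 3.14 to 15.5 CPM with a median of 11.1 CPM. Of the 6 responders, 5 lay above every non-responder, and responder 5 lay with the non-responders. The difference was 2.41-fold (log2 1.27, SE 0.36, unadjusted p=0.00469, adjusted p=0.0942). DESeq2 gave log2 1.26 at an adjusted p of 0.00704, and leaving out responder 5, after which edgeR called 1805 genes, gave 1.43 at an adjusted p of 0.00508. Leaving out each of the other 9 tumours kept it between 1.12 and 1.48 and not past the threshold. With name series as a block it was 1.31 (adjusted p=0.129), and within series 2 its means were 13.9 CPM in 2 responders and 3.82 CPM in 3 non-responders. Within series 4 the 4 responders had a mean of 8.83 CPM (3.14 to 11.2) and the only non-responder had 6.29 CPM, with 1 responder below it.

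Cyp26b1 had 53.2, 113, 117 and 123 CPM in the non-responders and 112 to 170.1 CPM (median 143) in the responders. The groups overlapped, with 4 of 6 responders above every non-responder (log2 0.51, SE 0.22, unadjusted p=0.0409, adjusted p=0.2). Dhrs3 had 112, 138, 156 and 186 CPM in non-responders and 163 to 205 CPM (median 169.7) in responders, which overlapped as well (log2 0.28, SE 0.122, unadjusted p=0.0432, adjusted p=0.206). The lowest level of both genes among the 10 tumours was that of non-responder 1, and without it the differences were 0.28 and 0.14. Series 2 held 3 of the 4 non-responders and had lower means of both genes, 107 ± 32.5 and 148 ± 24.1 CPM (SD, n=5), than series 4, with 144 ± 24.8 and 181 ± 16.1 CPM (SD, n=5). As a block, series brought the differences to 0.39 and 0.19.

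The other 5 genes overlapped between responders and non-responders. Their log2 differences were -0.18 for Rdh10 (95% interval -0.46 to 0.09), -0.38 for Aldh1a1 (-0.91 to 0.15), 0.19 for Aldh1a3 (-0.75 to 1.12), -0.01 for Crabp2 (-0.27 to 0.26) and -0.19 for Stra6 (-0.64 to 0.27). Summed marker levels are given for responders against non-responders and were not tested. Those of macrophage markers (2010 to 2359 CPM against 1624 to 1997 CPM) did not overlap. Those of T cell markers (36.9 to 82.8 CPM against 33.0 to 50.4 CPM) and eosinophil markers (9.94 to 29.5 CPM against 7.62 to 18.3 CPM) overlapped. None of the genes on these lists passed the test, and Epx, a defining eosinophil gene, was at 0 in 25 of 39 tumours. The sums of neutrophil markers (130.1 to 258 CPM against 102 to 160.04 CPM) and dendritic cell markers (73.1 to 153 CPM against 58.1 to 94.4 CPM) overlapped as well. Lower means in responders, with overlap, were those of fibroblast (11245 against 13868 CPM), adipocyte (48.5 against 58.7 CPM) and skeletal muscle sums (1056 against 1572 CPM). Responder 5, low in Aldh1a2, was the lowest responder in the T cell, eosinophil, neutrophil and dendritic cell sums. The part of these cells in the Aldh1a2 values was not tested.

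**Figure D3:**
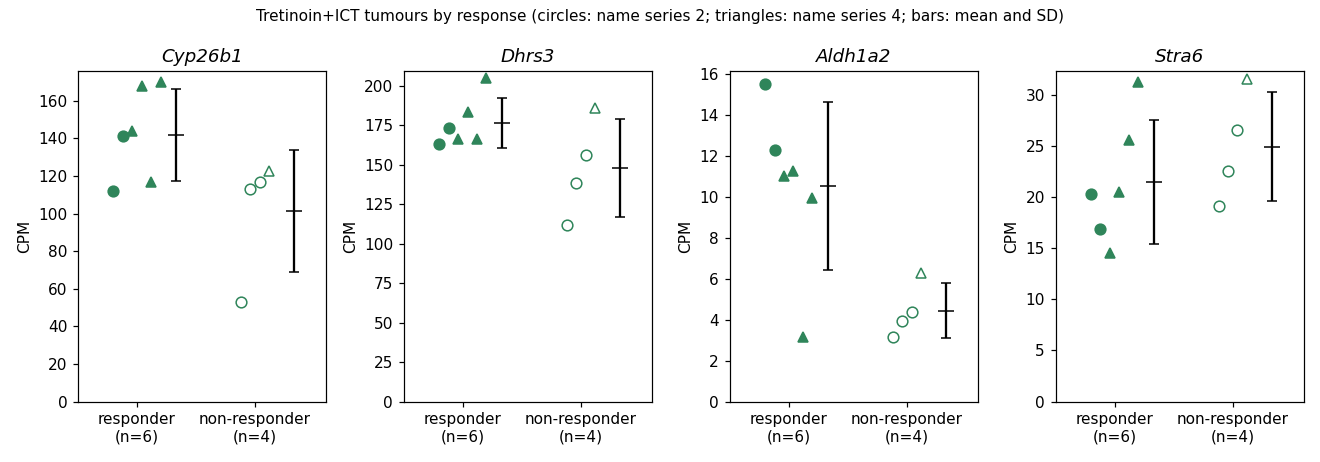
Levels of Cyp26b1, Dhrs3, Aldh1a2 and Stra6 in CPM, on axes that start at 0, in the 10 tretinoin+ICT tumours by response, with circles for name series 2, triangles for series 4 and bars for the mean and SD of each response group. For Aldh1a2, 5 of the 6 responders lie between 9.94 and 15.5 CPM, above the 4 non-responders (3.14 to 6.29 CPM), and 1 responder lies at 3.14 CPM.

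To describe what each gene varied with, its log2 CPM was taken as the deviation from the mean of the tumour's own group (5 groups, 39 tumours) and compared with that of 12122 genes. The values are descriptive, over tumours that share libraries and composition. Stra6 was most like Islr (r=0.90), Dnm1 (r=0.89) and Efemp1 (r=0.88), of which Islr and Efemp1 are genes of stromal cells. Aldh1a1 was most like the muscle genes Myom2 (r=0.79), Xirp2 (r=0.79) and Itgb1bp2 (r=0.78). Aldh1a2 was most like Ccl24 (r=0.77), an eosinophil chemokine, F7 (r=0.76) and Prelp (r=0.76), and Aldh1a3 like Fndc1 (r=0.86), Duox1 (r=0.83) and Scara5 (r=0.83).

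Cyp26b1 was most like Sla (r=0.78, Spearman's rho 0.56), Adap2 (r=0.75) and Tbkbp1 (r=0.75), of which Sla is an adaptor of leukocytes. Dhrs3 was most like Paox (r=0.77), Maf (r=0.76) and Sulf2 (r=0.75), and Crabp2 like Rab2a (r=0.83), Snx7 (r=0.80) and Capn2 (r=0.76). Rdh10 was most like Bhlhb9 (r=0.85, rho 0.69), Vkorc1l1 (r=0.85, rho 0.67) and Hoxd13 (r=0.85, rho 0.63). Among the 8 genes themselves, Aldh1a2 varied most closely with Aldh1a3 (r=0.68), then with Dhrs3 (r=0.52) and Cyp26b1 (r=0.49), while Cyp26b1 and Dhrs3 had r=0.43. Cyp26b1 varied opposite to Rdh10 (r=-0.55) and Stra6 (r=-0.44) within groups. ICT 3, which stood apart, had the lowest Rdh10 (63.5 CPM) and the highest Cyp26b1 (32.4 CPM) of the ICT tumours.

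Of 37 further genes of retinoid handling, 31 were in the table, and 16 to 20 of them had counts enough to be tested in a given comparison. After tretinoin 2 of 19 rose, 1 fell and 16 did not pass, with a median log2 fold change of -0.09 against 0.01 over all genes, a share of calls below the 20.4% of all genes. Lrat, which esterifies retinol for storage, is among the 2, but it passed the filter on low counts through the tretinoin tumours, where it was high, so its values are given as counts and its call supports nothing. It had 0 to 5 counts in the PBS tumours, 4 of 10 of which were at 0, and 13 to 64 counts in the tretinoin tumours, all of which lay above every PBS tumour. ICT tumours had 0 to 4 counts, with 6 of 10 at 0, and tretinoin+ICT tumours 3 to 42, and Lrat was too low in tretinoin+ICT to be tested against PBS or ICT. Summed over 10 tumours each, ICT tumours had 8 counts and PBS tumours 14. Its mean in the tretinoin tumours was 0.449 CPM per kb. Rdh5, a retinol dehydrogenase, rose (log2 0.31, SE 0.0984, adjusted p=0.0315) and Rdh11, a retinal reductase, fell slightly (log2 -0.17, SE 0.0466, adjusted p=0.0164).

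After ICT 3 of 18 rose and 1 fell, a share near the 21.2% of all genes. Dhrs9, a dehydrogenase of macrophages that can oxidise retinol, rose by log2 0.99 (SE 0.127, adjusted p=7.47e-05), Fabp5, which can carry retinoic acid to another nuclear receptor, by 0.78 (SE 0.214, adjusted p=0.0157) and Rdh12, a retinal reductase, by 0.51 (SE 0.145, adjusted p=0.018). Crabp1, a binding protein linked to the clearance of retinoic acid, fell by 0.58 on the log2 scale (SE 0.176, adjusted p=0.0235). With tretinoin+ICT compared with tretinoin, Dhrs9 (log2 0.999, SE 0.242, adjusted p=0.00981) and Fabp5 (log2 0.90, SE 0.248, adjusted p=0.0177) were again higher, 2 of 17 rising, and 2 fell, Adh7 and Lrat (kept by the filter through the tretinoin tumours), a share of calls near the 21.4% of all genes. Adh7, an alcohol dehydrogenase, had a small difference (log2 -0.34, SE 0.0867, adjusted p=0.0117). Both comparisons add ICT, once without and once with tretinoin, and after tretinoin alone Dhrs9 differed by 0.06 (adjusted p=0.885).

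Compared with PBS, tretinoin+ICT gave 5 of 18 that rose and 7 that fell, where 50.3% of all genes passed. The largest rises were those of Dhrs9 (log2 1.05, SE 0.148, adjusted p=1.02e-05), Fabp5 (log2 0.89) and Rdh12 (log2 0.58). The largest falls were those of Aldh1a7, a paralogue of Aldh1a1, Rbp7, a retinol-binding protein of adipose tissue and vessels, and Adh1 (log2 -0.71), an alcohol dehydrogenase. Between treatments, Aldh1a7 and Rbp7 had counts enough to be tested only against PBS, the group with their highest means. They passed the filter through those tumours, so their values are given as counts and their calls support nothing. Aldh1a7 had 6 to 37 counts in PBS and 4 to 23 in tretinoin+ICT tumours. Rbp7 had 8 to 35 counts in PBS and 2 to 15 in tretinoin+ICT tumours. None of 18 passed between responders and non-responders, and none of 20 for the interaction. The map of the other retinoid genes shows these comparisons.

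**Figure D4:**
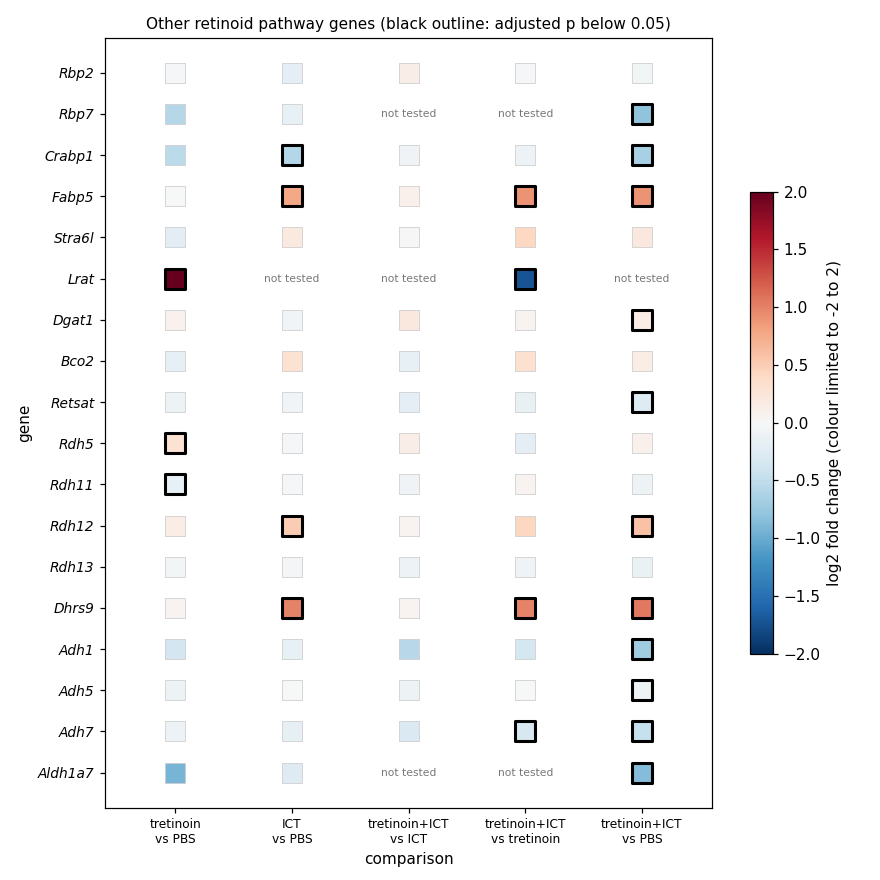
Log2 fold changes of 18 other retinoid genes (rows) in 5 comparisons of treatments (columns), as the colour of a square from blue (lower) to red (higher), limited to -2 to 2, with a black outline where the adjusted p was below 0.05. Lrat, near 0 counts in PBS tumours, is the only gene past the limit of the scale, and Dhrs9 is outlined for ICT against PBS (0.99) and for tretinoin+ICT against tretinoin (0.999) and PBS (1.05).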

How the data were processed

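RNA from 39 AB1-HA tumours was sequenced, and the authors deposited raw counts of reads per gene. The submitters' processing notes name bcl2fastq 2.20.0.422 and HISAT2 2.0.4, and the study's methods name SummariseOverlaps and a genome called mm11. Whether counting used strand is not given in the sources used here, so antisense reads cannot be told apart. No other GENCODE M21 gene has exons overlapping those of the 8 genes. Positions and lengths come from GENCODE M21 (99.54% of identifiers matched without version, 92.55% with it).

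Groups came from the labels. Each comparison was fitted over all genes kept by filterByExpr with edgeR 4.0.16 (TMM, quasi-likelihood, robust) in R 4.3.3, and p-values were adjusted by Benjamini-Hochberg. Alternatives were DESeq2 1.42.0, RLE size factors, a fit without the filter, a minimum of 10 counts per tumour, a joint fit of all 39 tumours, pairs of name series, a name series block for response and, chosen after the data were seen, leaving out 6 tumours and a block on the last digit of the tumour names. CPM used TMM factors over 39 tumours. Scripts were tested on simulated data. The genes and lists were chosen with earlier results of these data known. Named genes were the 8 genes, up to 3 largest rises and falls of the retinoid list per comparison, and the 3 genes most like each gene; 1 gene of the retinoid list is not reported here. Figures used matplotlib 3.10.9 in Python 3.11.15.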

Additional observations from a re-analysis of the deposited data

Results flagged for a closer look

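Among 40 groups of values examined for a single extreme tumour (8 genes in 5 groups), 4 held one, where chance gives about 1 in 20. Cyp26b1 was lowest in non-responder 1, at 53.2 CPM, with the nearest non-responder at 113 CPM. Rdh10 was lowest in non-responder 2, at 85.0 CPM, with the nearest at 117 CPM, and that tumour also had the highest muscle marker sum. Aldh1a3 was highest in PBS 8, at 8.36 CPM, with the nearest at 3.77 CPM. Stra6 was highest in ICT 10, at 37.99 CPM, with the nearest at 23.3 CPM.

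The difference made by tretinoin was smaller with ICT than without it for Cyp26b1 (interaction -2.36 on the log2 scale) and Dhrs3 (-1.18). Both were tested as an interaction over all 39 tumours, in which tretinoin exposure and name series cannot be told apart from ICT.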

How the results depend on the processing

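Of 616 values of the 8 genes under alternatives, 548 kept direction and side of the threshold, 34 lost the call, 7 gained it and 27 changed sign, and 118 of 142 counts stayed within 1.5 times. The values that changed sign had not passed the test, apart from Aldh1a2 after tretinoin, and the cause was not tested.

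With the fold minimum the counts of the 8 genes and of the retinoid list were 3 and 1 for tretinoin against PBS, 1 and 0 for ICT against PBS, 3 and 1 for tretinoin+ICT against tretinoin and 3 and 1 against PBS, and the list had 0 against ICT. DESeq2 gave list counts of 6 for tretinoin against PBS and 3 for tretinoin+ICT against ICT, and 1 gene in each of both lists for response. For tretinoin+ICT against ICT the list had 2 without the filter on low counts, 4 with all tumours in one fit and 2 without the 6 tumours.

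Within name series, ICT against PBS called 0 of the 8 genes in series 6 against 1, 0 in 6 against 5 and 2 in 8 against 1. Tretinoin+ICT called 1 against ICT (2 against 8), and 3 (2 against 3) and 2 (4 against 3) against tretinoin. With each tumour left out, the counts for response ranged from 0 to 1 for the 8 genes and from 0 to 1 for the list, and both were 1 only without responder 5. The log2 difference of Aldh1a3 then ranged from -0.057 to 0.47 and that of Crabp2 from -0.10 to 0.079.

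Without the 6 tumours, Aldh1a1 turned to -0.091 (ICT against PBS), -0.061 (tretinoin+ICT against tretinoin), 0.037 (response) and 0.037 (interaction), Aldh1a3 to -0.064 (tretinoin+ICT against PBS) and Rdh10 to -0.038 (interaction). In pairs of series, Aldh1a1 was -0.063 in 7 against 5, -0.084 in 6 against 5, -0.25 in 8 against 5, -0.20 in 4 against 3 and -0.048 in 4 against 5. Aldh1a2 was -0.00017 in 7 against 5. Aldh1a3 was 0.0084 in 6 against 1, -0.30 in 2 against 5 and -0.14 in 4 against 5. Stra6, tretinoin+ICT against PBS, was 0.10 in 4 against 1, 0.11 in 4 against 5 and 0.0020 with at least 10 counts in every tumour.

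The last digit of the tumour names repeats in every series, but nothing ties it to a litter, batch or day. Tumours of different treatments with the same digit had mean correlations of -0.026 to 0.029 in their deviations from the treatment means, and 7 of 39 tumours were most like those of their own digit. With the digit as a replicate block the counts of the 8 genes were as reported (6, 4, 3, 5 and 5 in the 5 comparisons of treatments), and Aldh1a1 turned to -0.029 (tretinoin+ICT against tretinoin) and Stra6 to 0.0032 (tretinoin+ICT against PBS). Non-responders numbered 4, which limits the response comparison, and series and treatment cannot be told apart.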
